A study of Mus musculus with 3 samples.

Results

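Nascent and presomitic mesoderm regulators are described here as 9 genes, Mesp1, Mesp2, Msgn1, Ripply2, Tcf15, Meox1, Foxc1, Foxc2 and Pcdh8, found by their gene names among the 55487 genes of the expression table. A minimum of 10 counts in at least 1 library was met by 7 of the 9 and by 17655 of all genes, and only these were used for ratios; Ripply2 and Meox1 stayed below this minimum. The study asked which genes of primitive streak formation respond to ceramide in embryoid bodies (EBs), aggregates in which mouse ES cells begin to form the embryonic lineages. E14K ES cells, of wild-type genotype, were aggregated in hanging drops in serum medium without LIF. The 3 libraries came from EBs on day 4 that had received 30 μM C2 ceramide, a short cell-permeable ceramide, from the beginning of day 3, from vehicle (DMSO) EBs on day 4, and from DMSO EBs on day 3, so day 3 marks the time at which the treatment began. No condition was replicated, each being a single library (n = 1), so no test between conditions was possible, and differences are given by their size with an interval that covers counting error only. RNA came from whole EBs, mixtures of cells, and fewer cells of a type and less RNA per cell cannot be told apart in such a sample.

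Paraxial mesoderm leaves the primitive streak as an unsegmented strip, the presomitic mesoderm, from which somites bud at regular intervals under a clock of Notch, Wnt and FGF signals. Mesp1 and Mesp2 encode related bHLH factors: in the mouse Mesp1 marks the first mesoderm to leave the streak, heart precursors included, and Mesp2 sets the border of the next somite. Msgn1 encodes a bHLH factor that commits cells to the presomitic fate, Ripply2 a repressor that ends Mesp2 expression, Tcf15 (paraxis) and Meox1 factors of the formed somite, Foxc1 and Foxc2 forkhead factors of paraxial and other mesoderm, and Pcdh8 (paraxial protocadherin) a cell adhesion protein of the same tissue.

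DMSO EBs expressed 6 of the 9 genes at more than 2-fold higher levels on day 4 than on day 3, as they did 12.8% of all genes in use. So did 11 of 14 genes of definitive endoderm and node. Such a rise is therefore not particular to presomitic mesoderm and does not by itself bear out the name of the group. Ripply2 and Meox1, the genes of the anterior border and of the formed somite, were hardly detected in any library. Tcf15 was present in all libraries and highest on day 3, so in these EBs its level does not mark presomitic mesoderm; in mouse ES cell cultures Tcf15 is also known from pluripotent cells.

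Mesp1 and Mesp2 are neighbours on chromosome 7 and are transcribed away from each other, with 16.9 kb between their start sites. In the coordinates of GRCm38, Mesp1 (ENSMUSG00000030544.5) spans chr7:79792241-79793788 on the minus strand and Mesp2 (ENSMUSG00000030543.10) spans chr7:79810727-79813439 on the plus strand, each with 2 exons. The sequences around their start sites were read from RefSeq promoters of build GRCm38.p6, which matched 6 of the 9 genes. These promoters run from 250 bases before to 50 bases after the start site. Tcf15, Meox1 and Foxc2 were not matched. Both strands were searched for AGGTGTGA (T-box), CANNTG (E-box), CTTTGNT (TCF/LEF) and TGGGAA (RBPJ), and, after the sequences had been read, for AGGTGTG, the core of the T-box motif and therefore part of every match to it. Stretches of 30 bases are shown because they let the T-box letters of the neighbouring Mesp genes be compared, 5′ to 3′ in the direction of transcription, with the match in capitals:
Mesp1, chr7:79793567-79793596, minus strand: aggggcccgctTCACACCTagggctcagga
Mesp2, chr7:79810743-79810772, plus strand: ggggtcagaatcCACACCTctgcaaatggg
The Mesp1 stretch holds the complete 8-letter motif read on the other strand, which 1.28% of 32851 promoters of the same length hold. The Mesp2 stretch holds only the core, which 5.84% of those promoters hold. Both matches lie after the RefSeq start site, beginning at base 6 from it in Mesp1 and at base 29 in Mesp2. The RefSeq start site of Mesp1 lies 198 bases inside the transcript of the expression table. The 198 bases before that site are therefore also transcribed by the table's annotation.

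TCF/LEF letters were found in Mesp1, Msgn1 and Pcdh8, and in 18.6% of all promoters; these stretches are shown because Wnt signalling acts through TCF/LEF factors in this tissue:
Mesp1, chr7:79793604-79793633, minus strand: ggctcgagccggCTTTGATatgctgatgaa
Msgn1, chr12:11209134-11209163, minus strand: aagatgctaattATCAAAGaggggaaagtg
Pcdh8, chr14:79771473-79771502, minus strand: aggagtttttaaAACAAAGgaaagattccc
RBPJ letters, those of the DNA-binding partner of Notch, were found in Msgn1 and Foxc1, against 25.6% of all promoters:
Msgn1, chr12:11209045-11209074, minus strand: caggggccccctTTCCCActttgtccccga
Foxc1, chr13:31806640-31806669, plus strand: agttcagaagttTTCCCAatgcttccttaa
The Foxc1 match also lies after the start site, beginning at base 7 from it. E-box letters stood in Mesp1, Mesp2, Msgn1 and Ripply2, but 72.3% of all promoters hold them, so they set these genes apart least. For a wider view, the 250 bases before the start site of Mesp2, the gene with 0 counts in ceramide EBs, and of Msgn1 read as follows, with every match other than an E-box in capitals (Mesp2 has none here):
Mesp2, chr7:79810477-79810726, plus strand: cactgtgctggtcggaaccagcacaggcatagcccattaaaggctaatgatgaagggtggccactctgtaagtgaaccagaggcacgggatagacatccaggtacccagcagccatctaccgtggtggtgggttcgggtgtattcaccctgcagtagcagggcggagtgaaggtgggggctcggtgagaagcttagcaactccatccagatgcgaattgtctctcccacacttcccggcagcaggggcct
Msgn1, chr12:11208949-11209198, minus strand: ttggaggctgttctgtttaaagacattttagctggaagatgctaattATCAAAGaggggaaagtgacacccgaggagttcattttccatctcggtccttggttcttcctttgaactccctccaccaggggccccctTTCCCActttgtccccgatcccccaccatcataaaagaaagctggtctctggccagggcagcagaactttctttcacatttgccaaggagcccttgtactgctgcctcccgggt
A match is a description of letters and does not show that a factor binds there.

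Total counts were 35290094 in the C2 ceramide day 4 library, 35078820 in the DMSO day 4 library and 33619197 in the DMSO day 3 library, and from 13421 to 13683 genes reached 1 TPM. TPM, the transcript level scaled for length and library total, was compared as a ratio. The treatment ratio is that of C2 ceramide EBs on day 4 to DMSO EBs on day 4, the day ratio that of DMSO EBs on day 4 to DMSO EBs on day 3, and both are given on the log2 scale with a 95% counting interval. A ratio above 2 was called higher and one below 0.5 lower, and 0.001, the smallest step of the table, stood in for a TPM of 0. Over all 17655 genes in use the median log2 ratio lay between −0.03 and 0.05 in the 3 comparisons, so the libraries were centred on each other.

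With C2 ceramide, 6 of the 7 genes in use were lower than in DMSO EBs on day 4 and none was higher, the exception being Tcf15, which stayed within 2-fold. Over all genes in use 12.3% were lower and 9.97% higher in this comparison. The median log2 ratio of the 7 genes was −3.45, against −0.03 over all genes. Between day 4 and day 3 of DMSO treatment the same 6 genes were higher and Tcf15 was lower, where 12.8% of all genes were higher and 9.45% lower; the median of the 7 was 5.60 (5.29 when bounds stood in for genes without counts), against 0.05 over all genes. Both comparisons share the DMSO day 4 library and are therefore not independent of each other.

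**Figure D1:**
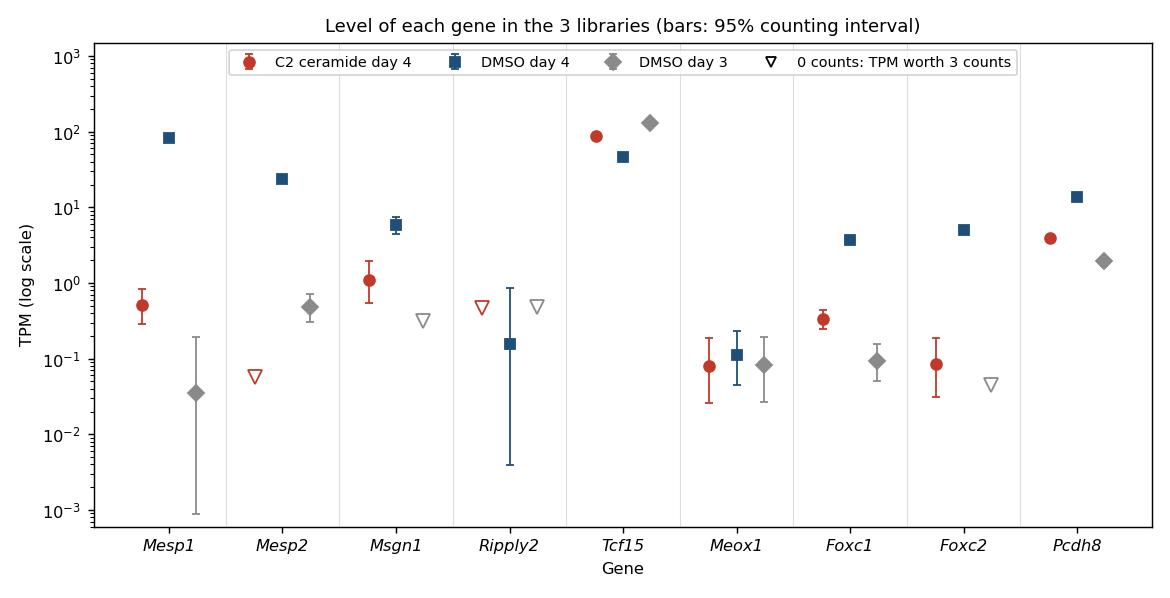
TPM of each of the 9 genes in the C2 ceramide day 4, DMSO day 4 and DMSO day 3 libraries, on a log axis; bars are 95% counting intervals, and open triangles mark a library with 0 counts at the TPM that 3 counts would give. In 6 genes the DMSO day 4 interval stands above those of the other libraries, while Tcf15 is at 46.2 TPM in that library, below both others.

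Mesp1 stood at 0.509 TPM in C2 ceramide EBs on day 4, at 83.1 TPM in DMSO EBs on day 4 and at 0.035 TPM in DMSO EBs on day 3. These levels rest on 15 counts with C2 ceramide, 2440 counts with DMSO on day 4 and 1 count on day 3. The gene was therefore nearly silent on day 3 and abundant 1 day later in vehicle, and the ceramide library held only a trace of it. The treatment ratio was −7.35 (−8.19 to −6.63), that is 163-fold lower (98.8 to 292). The day ratio was 2375-fold, but the single count on day 3 leaves an interval of 426 to 93829.

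Mesp2 had 0 TPM with C2 ceramide on day 4, 23.5 TPM with DMSO on day 4 and 0.483 TPM with DMSO on day 3. The counts were 0, 1195 and 24 in the same order of libraries, so the small amount already present on day 3 was not detected in the ceramide library either. Against a floor of 3 counts per library, Mesp2 was at least 401-fold lower in C2 ceramide EBs than in DMSO EBs on day 4, and at least 8.40-fold lower than in DMSO EBs on day 3. The count of 0 allows up to 0.058 TPM with C2 ceramide by the same floor. The day ratio was 5.60 (5.02 to 6.25). Mesp2 was the only gene of the 9 to lie more than 2-fold below its day 3 level in ceramide EBs.

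The balance of the Mesp genes differed between the DMSO libraries. Mesp1 exceeded Mesp2 on day 4, with a TPM ratio of 3.54 (3.31 to 3.80), whereas on day 3 the ratio was 0.0725 (0.00176 to 0.444), and these intervals do not overlap. No ratio was formed for C2 ceramide EBs, where Mesp2 had no counts; there Mesp1 kept 0.612% of its DMSO day 4 level.

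Msgn1 (ENSMUSG00000047002.2), a gene of 1 exon and 613 bases at chr12:11208360-11208972, was at 1.09 TPM in C2 ceramide EBs, at 5.85 TPM in DMSO EBs on day 4 and at 0 TPM on day 3. Its counts were low throughout, 11 with C2 ceramide, 58 with DMSO on day 4 and 0 on day 3. With C2 ceramide 18.6% of its DMSO day 4 level was present, a larger share than the 0.612% of Mesp1. The treatment ratio was −2.42 (−3.50 to −1.48). Relative to day 3, Msgn1 was at least 18.5-fold higher in DMSO EBs on day 4 and at least 3.49-fold higher in C2 ceramide EBs.

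Ripply2 (ENSMUSG00000047897.10), at chr9:87015537-87019917, is the partner that shuts off Mesp2 at the somite border. It had 0 counts with C2 ceramide, 1 count with DMSO on day 4 and 0 counts on day 3, so no ratio was formed. In DMSO EBs on day 4, then, Mesp2 was expressed at 23.5 TPM while Ripply2 was barely detectable at 0.155 TPM (counting interval 0.0039 to 0.864).

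The forkhead pair followed the course of the Mesp genes at lower levels. Foxc1 (ENSMUSG00000050295.4), a gene of 1 exon at chr13:31806633-31812476, measured 0.336 TPM with C2 ceramide, 3.68 TPM with DMSO on day 4 and 0.094 TPM with DMSO on day 3, from 51, 559 and 14 counts. The treatment ratio was −3.45 (−3.90 to −3.04), and the day ratio was 5.29 (4.53 to 6.17). Foxc1 in C2 ceramide EBs remained above its day 3 level, with a log2 ratio of 1.84 whose interval of 0.96 to 2.81 reaches just below 2-fold.

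Foxc2 (ENSMUSG00000046714.7), also of 1 exon, at chr8:121116171-121118895, was at 0.085 TPM with C2 ceramide, 4.96 TPM with DMSO on day 4 and 0 TPM with DMSO on day 3, from 6, 348 and 0 counts. Its treatment ratio was −5.87 (−7.32 to −4.73), a deeper loss than that of Foxc1, whose interval lies apart from it. On day 4 Foxc2 was at least 111-fold higher than on day 3 in DMSO EBs. The Foxc2 to Foxc1 ratio of TPM was 0.253 (0.0887 to 0.590) in C2 ceramide EBs and 1.35 (1.18 to 1.54) in DMSO EBs on day 4. These counting intervals do not overlap, though the first rests on 6 counts of Foxc2. Foxc2 lies within the span of Galnt2l on the same strand, and the counting of reads shared by these genes cannot be checked from the table; Galnt2l itself was at 0.491 TPM with C2 ceramide, 1.81 TPM with DMSO on day 4 and 0.367 TPM with DMSO on day 3.

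Pcdh8 (ENSMUSG00000036422.10), at chr14:79766775-79771312, kept the largest share of its DMSO day 4 level among the 6 lower genes, 28.9%. It was at 3.93 TPM with C2 ceramide, 13.6 TPM with DMSO on day 4 and 1.94 TPM with DMSO on day 3. Unlike the Mesp and Foxc genes, it was clearly expressed before day 4, with 209 counts on day 3. The treatment ratio was −1.79 (−1.95 to −1.64), and the day ratio was 2.81 (2.60 to 3.03). Pcdh8 was the only gene of the 9 with more than 1 transcript above 0. The transcript ENSMUST00000039568.10 carried 69.3% of its TPM with C2 ceramide, 64.1% with DMSO on day 4 and 71.1% with DMSO on day 3, so the ratio did not rest on a change of the leading transcript. An antisense gene overlapping it, Gm9748, had no more than 2.25 estimated counts in any library.

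Tcf15 (ENSMUSG00000068079.5), at chr2:152143561-152149097, ran against the other genes. It measured 87.9 TPM in C2 ceramide EBs, 46.2 TPM in DMSO EBs on day 4 and 132 TPM in DMSO EBs on day 3, from 1705, 891 and 2487 counts. Between the DMSO libraries it was lower on day 4, with a day ratio of −1.52 (−1.63 to −1.40). The treatment ratio was 0.93 (0.81 to 1.05), 1.90-fold, just inside the 2-fold threshold, and its interval includes 2-fold. Against day 3, Tcf15 with C2 ceramide had a log2 ratio of −0.59 (−0.68 to −0.50), so its level lay between those of the DMSO libraries.

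Meox1 (ENSMUSG00000001493.9), a homeobox gene of the formed somite at chr11:101877510-101894374, had 5 counts with C2 ceramide, 7 with DMSO on day 4 and 5 with DMSO on day 3, or 0.080, 0.113 and 0.082 TPM in that order. The counting intervals of these levels overlap, and a difference was not detectable at this depth.

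**Figure D2:**
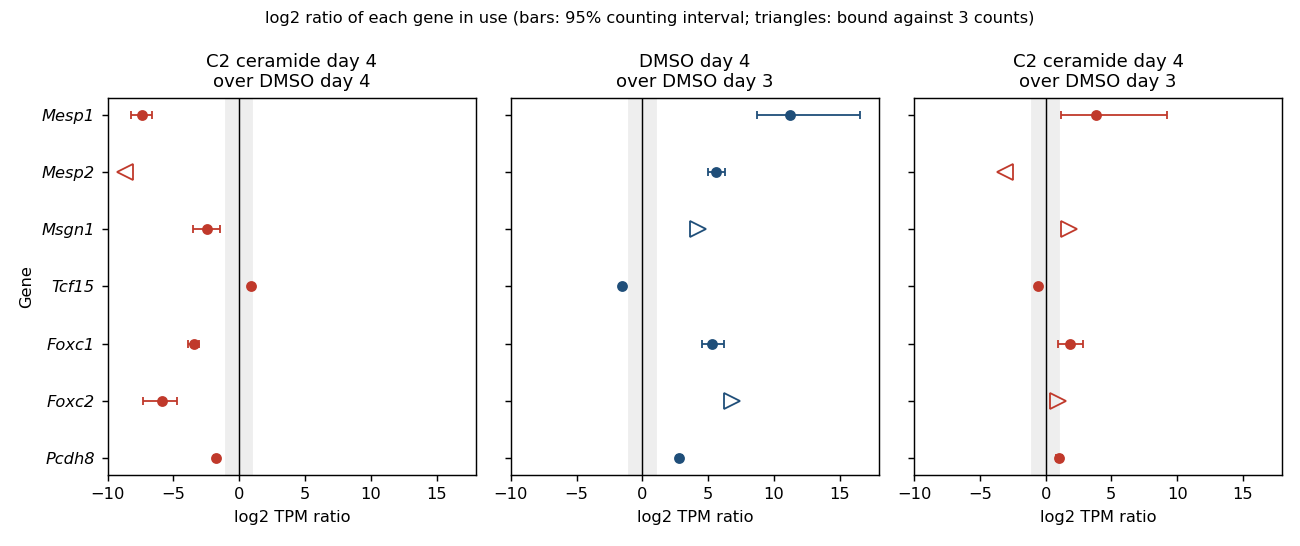
log2 TPM ratio of the 7 genes in use, from left to right for C2 ceramide day 4 over DMSO day 4, DMSO day 4 over DMSO day 3 and C2 ceramide day 4 over DMSO day 3; bars are 95% counting intervals, triangles are bounds against 3 counts, and the grey band is the range within 2-fold. In the left panel 6 genes lie left of the band, and Tcf15 lies inside it at 0.93.

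Against the starting level of day 3, C2 ceramide EBs had 5 of the 7 genes higher and 1, Mesp2, lower, where 11.2% of all genes in use were higher and 9.39% lower. The median log2 ratio of the 7 genes was 1.84 (1.02 when bounds stood in for genes without counts), against 0.03 over all genes. These 5 calls are less firm than the others. Mesp1 rests on 1 count on day 3, with a ratio of 14.5 (2.24 to 612), and Pcdh8 had a log2 ratio of 1.02 (0.77 to 1.26). Foxc2, at least 1.91-fold higher by the floor of 3 counts, passed only through the 0.001 that stood in for 0 TPM. Its counting interval reaches down to 1.12-fold. Of the gain in TPM that DMSO EBs made between day 3 and day 4, C2 ceramide EBs made 18.6% for Msgn1, 17.0% for Pcdh8, 6.75% for Foxc1, 1.71% for Foxc2 and 0.571% for Mesp1, and Mesp2 made none.

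The genes of the presomitic mesoderm and of its clock that are known as partners of these regulators were examined as a list of 28, all of them in use. The list was written with earlier results of these data known, and the study had reported T, Fgf8 and Tbx6 as decreased by C2 ceramide in the same libraries. Its counts are therefore a description and no independent support. In C2 ceramide EBs 20 of the 28 were lower than in DMSO EBs on day 4 and 0 were higher. The shares over all genes were 12.3% lower and 9.97% higher. The median treatment ratio of the 28 was −2.51. Between day 4 and day 3 of DMSO treatment 24 were higher and 0 lower, where 12.8% of all genes were higher and 9.45% lower. The median day ratio was 2.97 (2.81 when bounds stood in for genes without counts). Between C2 ceramide on day 4 and DMSO on day 3, 10 were higher and 1, Hey1, was lower, and the median was 0.43. Over all genes 11.2% were higher and 9.39% lower in that comparison.

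**Figure D3:**
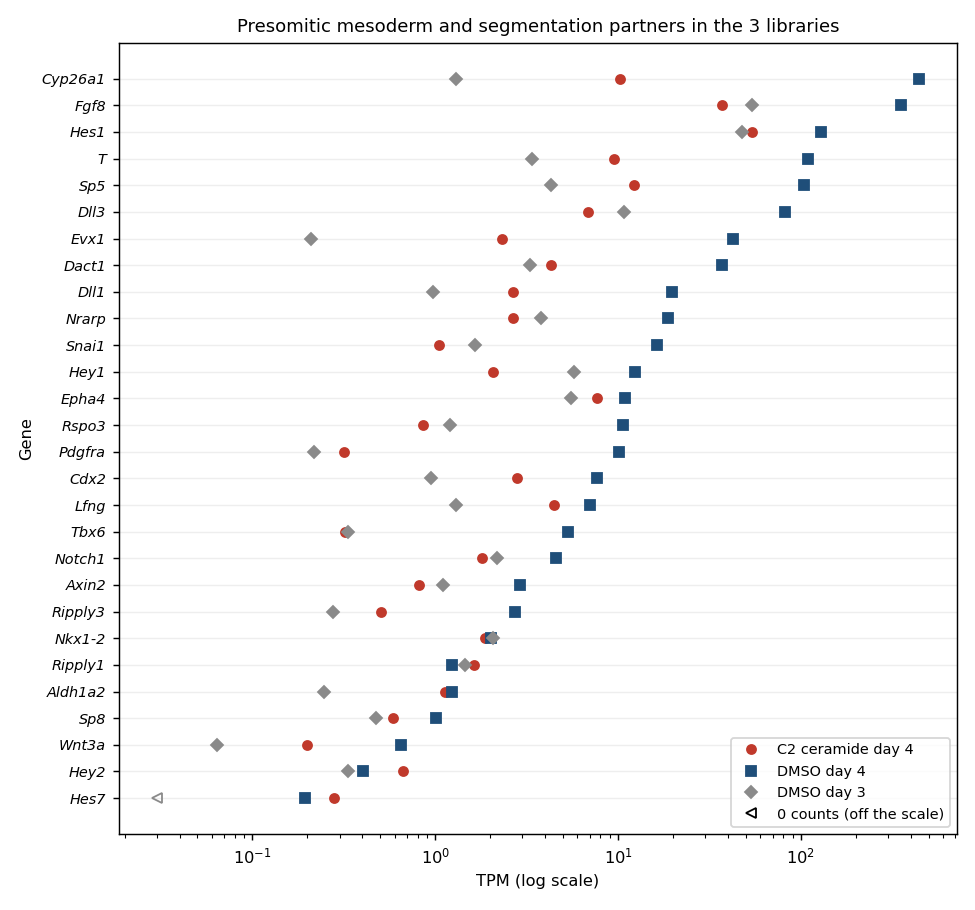
TPM of 28 presomitic mesoderm and segmentation partners in the C2 ceramide day 4, DMSO day 4 and DMSO day 3 libraries, on a log axis, ordered by the DMSO day 4 level. Cyp26a1, at the top, stands at 444 TPM with DMSO on day 4, to the right of its C2 ceramide and day 3 levels.

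The 3 partners with the largest ratios were Cyp26a1, Pdgfra and Evx1. Cyp26a1, which degrades retinoic acid in the tail end of the embryo, was at 10.3 TPM with C2 ceramide, 444 TPM with DMSO on day 4 and 1.29 TPM with DMSO on day 3, a treatment ratio of −5.44 (−5.58 to −5.30). Pdgfra, a receptor of nascent and paraxial mesoderm, had a ratio of −4.99 (−5.38 to −4.62). Evx1, a homeobox gene of the posterior streak, had one of −4.19 (−4.42 to −3.98).

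A few partners are named for their place beside Mesp2 and Msgn1, chosen after their values were seen. Tbx6, the T-box factor that activates Mesp2 with Notch in the mouse, was at 0.323 TPM with C2 ceramide, 5.31 TPM with DMSO on day 4 and 0.335 TPM with DMSO on day 3. T (Brachyury), the T-box factor of the streak, was at 9.47, 109.8 and 3.39 TPM in these libraries. Dll1, the main Notch ligand of the presomitic mesoderm, was at 2.65, 19.8 and 0.973 TPM. Tbx6 and Dll1 thus shared the day 4 peak of Mesp2. The clock gene Hes7 was at 0.279, 0.195 and 0 TPM and Ripply1, the relative of Ripply2, at 1.64, 1.24 and 1.46 TPM, without such a peak. Both rest on few counts, 13, 9 and 0 for Hes7 and 27, 20 and 23 for Ripply1. The treatment interval of Hes7 was −0.82 to 1.92.

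Genes of other tissues were counted in the same way by the treatment ratio, where 12.3% of all genes were lower and 9.97% higher. Of 18 genes of somite derivatives 10 were in use, 6 lower and 1 higher, and 8 were at too few counts. The intervals of Pax1, Uncx and Twist2 among the lower genes include no change. Myod1, also lower, rests on 1 count with C2 ceramide and 8 with DMSO on day 4, and was in use only through 16 counts on day 3. The higher gene, Tbx18, had 25 counts with C2 ceramide and 0 with DMSO. Of 20 genes of intermediate, lateral and cardiac mesoderm 16 were in use, 10 lower and 4 higher, 1 of the lower ones being Tbx5, which passed only through the value set for 0. Of the 4 higher ones Myocd rests on 10 counts with C2 ceramide and 2 with DMSO, and Pax8 on 6 and 8, so that its counts and its TPM (0.666 with C2 ceramide and 0.109 with DMSO) point in opposite directions. The 3 largest ratios of this list were those of Lhx1 at −7.26, Hand1 at −4.25 and Wt1 at 4.08. Of 14 genes of definitive endoderm and node 10 were lower and 0 higher, with a median of −3.47, near that of the 7 regulators. Foxa1 fell to 0 counts with C2 ceramide, and Cer1 and Sox17 had log2 ratios of −9.20 and −6.81, so losses of this size were also measured outside the mesoderm regulators.

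**Figure D4:**
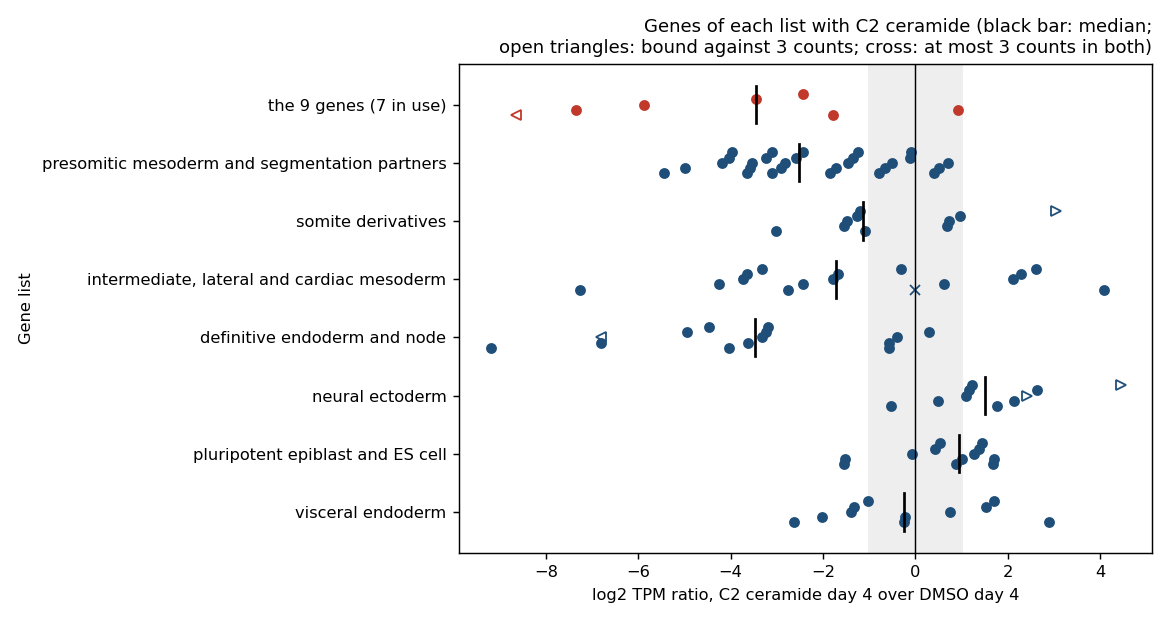
Treatment ratio (log2, C2 ceramide day 4 to DMSO day 4) for every gene in use of the 9 regulators and of 7 gene lists; each point is 1 gene, the black bar is the median, and the grey band is the range within 2-fold. The medians lie at −3.45 for the regulators, −2.51 for their partners, −3.47 for definitive endoderm and node and 1.50 for neural ectoderm.

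Markers of neural ectoderm and of pluripotent cells were more often higher than lower beside these losses. Of 12 neural ectoderm genes 10 were in use, 8 higher and 0 lower in C2 ceramide EBs on day 4. The shares over all genes were 9.97% higher and 12.3% lower. Against DMSO EBs on day 3, 5 were higher and 0 lower, where 11.2% of all genes were higher and 9.39% lower. Sox2, Sox3 and Pax6, higher by the treatment ratio, were within 2-fold of day 3. Summed levels were 276 TPM with C2 ceramide, 219 TPM with DMSO on day 4 and 287 TPM with DMSO on day 3. Sox2 at 120 TPM and Otx2 at 100 TPM made up most of the C2 ceramide sum. Sox1 had 66 counts with C2 ceramide, at 0.524 TPM, and 0 counts in both DMSO libraries. Olig3, Pax6 and Lhx2, also among the higher genes, were low too, at 0.291, 0.921 and 1.05 TPM with C2 ceramide. Olig3 rests on 16 counts with C2 ceramide and 0 with DMSO on day 4, Pax6 on 66 and 23, and Lhx2 on 66 and 17. Of 12 genes of pluripotent epiblast and ES cells 6 were higher and 2 lower, with summed levels of 3049, 2570 and 3909 TPM in the same libraries. The 2 lower ones were Fgf5 at −1.55 and Tdgf1 at −1.53. Against DMSO EBs on day 3, 3 of the 12 were higher and 2, Fgf5 and Dnmt3b, were lower. Of 12 visceral endoderm genes 11 were in use, 3 higher and 5 lower by the treatment ratio. Their summed levels were 22.9, 25.7 and 12.9 TPM in the same libraries, and Apoa4 was at 0 in all 3. The part of a different mixture of cells in the lower levels of the mesoderm regulators was not tested.

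For each regulator the protein-coding gene with the most similar profile over the 3 libraries was taken among 12622 candidates, by Euclidean distance of centred log2(TPM + 0.1). These were Lhx1 for Mesp1, Lgr5 for Mesp2, Slc35g2 for Msgn1, Pou2f2 for Tcf15, Dnajb13 for Foxc1, Gm45623 for Foxc2 and Adam11 for Pcdh8. The distance was 0.0397 for Foxc2 and 1.13 for Mesp2, for which no gene came close. Lhx1, a LIM homeobox gene of the streak and intermediate mesoderm, was at 0.909 TPM with C2 ceramide, 139 TPM with DMSO on day 4 and 0.101 TPM with DMSO on day 3, at a distance of 0.133 from the Mesp1 profile. With 3 libraries such likeness describes the order and spacing of 3 values and no more.

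Genes next to the regulators on the chromosome were examined to see how far the differences extended. Within 150 kb of the start of Mesp1, 11 other genes were in use, of which 3 were lower with C2 ceramide on day 4, Mesp2 among them, and 1 was higher. The shares over all genes were 12.3% lower and 9.97% higher. The higher gene, 9330171B17Rik, rests on 11.2 counts with C2 ceramide and 4.53 with DMSO on day 4. The pseudogene Gm44705, 1.62 kb from the end of Mesp1, had 19.1 TPM with C2 ceramide and 22.3 TPM with DMSO on day 4, a log2 ratio of −0.23. Anpep, beside Mesp2, had 0.362 TPM with C2 ceramide and 1.82 TPM with DMSO on day 4, a ratio of −2.33 (−2.85 to −1.85). Kif7, the third lower gene, was just beyond 2-fold at −1.04. The large losses were thus those of the Mesp genes, with smaller ones at Anpep and Kif7, and most genes around them lay within 2-fold.

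Near Msgn1, Kcns3 was at 0.862 TPM with C2 ceramide, 8.21 TPM with DMSO on day 4 and 0.550 TPM with DMSO on day 3, while Gen1 on the other side was at 5.45, 5.80 and 5.62 TPM. Kcns3, a potassium channel subunit gene 57.3 kb from Msgn1, therefore shared the day 4 peak of Msgn1, and Gen1 did not. Near Foxc2, Foxf1, a forkhead gene of lateral mesoderm, was at 0.263 TPM with C2 ceramide, 2.65 TPM with DMSO on day 4 and 0 TPM with DMSO on day 3, whereas Mthfsd, between Foxf1 and Foxc2, was at 37.7, 46.7 and 25.8 TPM. Gmds, 7.10 kb from Foxc1, had a treatment ratio of 0.04 (−0.14 to 0.21) beside the −3.45 of Foxc1.

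**Figure D5:**
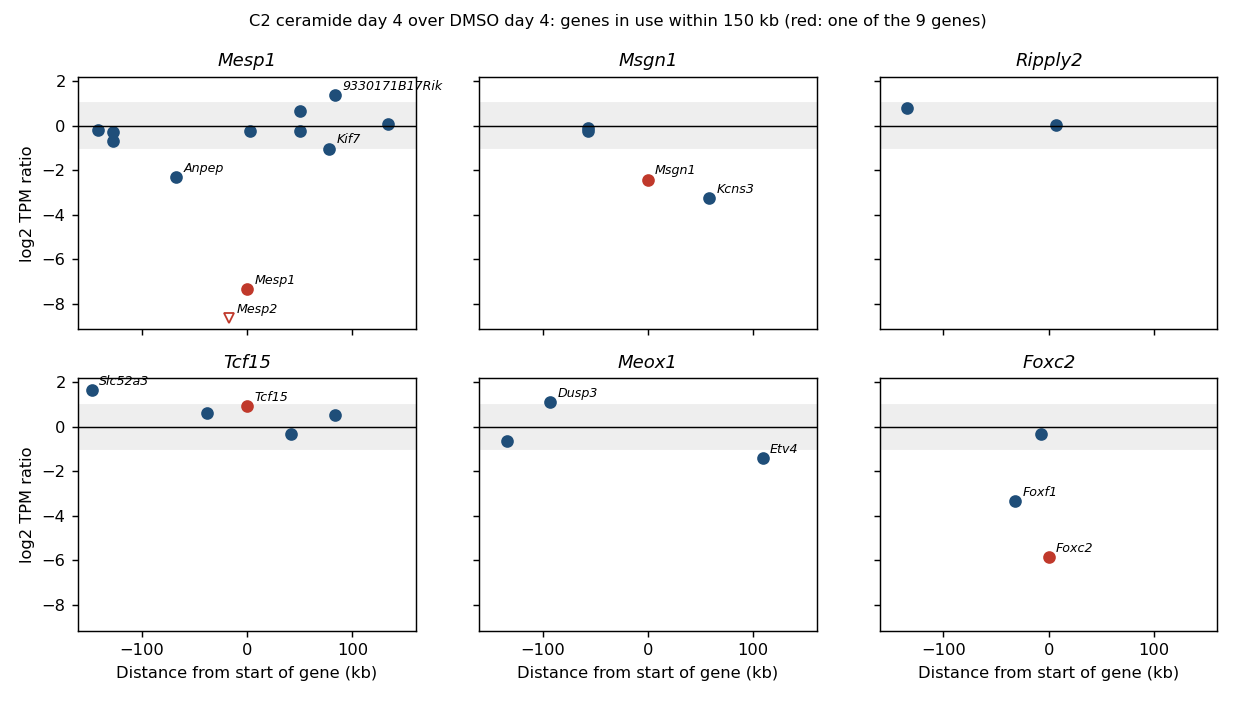
Treatment ratio (log2, C2 ceramide day 4 to DMSO day 4) for genes in use within 150 kb of the start of 6 regulators, against distance in kb in the direction of transcription; red marks one of the 9 genes, the open triangle is a bound against 3 counts, and the grey band is the range within 2-fold. Mesp1 and Mesp2 lie together far below the band, with Mesp1 at −7.35, and Kcns3 beside Msgn1 lies at −3.25.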

How the data were processed

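The 9 genes and the 7 gene lists were chosen with earlier results of these data known. The authors made cDNA with the SMART-Seq kit, which does not mark strand, and processed the reads with DRAGEN, the tool in the submitters' processing notes, on GRCm38 with a GENCODE annotation. The TPM values deposited by the authors are scaled for length and library total, and the expected counts deposited by the authors are estimates that are not normalized and need not be whole. The 6 per-sample columns of the gene table and those of the transcript table were used. Annotation columns served for names and coordinates, and exon numbers came from GENCODE for the same build.

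Ratios of TPM were taken for genes that reached 10 counts in any library, with 0.001 in place of 0 TPM. Python 3.11.15, pandas 2.3.3, NumPy 2.4.6 and SciPy 1.17.1 were used. The 95% interval of a ratio was computed from rounded counts and library totals by the exact conditional (Clopper-Pearson) method and centred on the TPM ratio. It covers counting error only and treats each count as an independent draw. PCR copies are not independent molecules, so the interval can be too narrow even for counting error. A fold against 0 counts is a bound against 3 counts in that library and leaves out the counting error of the other library. Ratios between TPM of different genes treat their lengths as known. The computation was tested on simulated data with ratios set in advance. Figures were drawn with Matplotlib 3.10.9.

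The text names the 9 genes, for each list the 3 genes furthest from no difference among those reaching 50 counts, the gene nearest in profile to each regulator, and neighbouring genes; values of some of these are left out for length. Alternatives were pseudocounts of 0.1 and 1 TPM, thresholds of 1.5-fold and 4-fold, intervals wholly beyond 2-fold, no filter or a minimum of 50 counts, counts per library total, and counts scaled by TMM (edgeR 4.0.16) or DESeq2 1.42.0 size factors in R 4.3.3 on rounded expected counts. A planned comparison of protein sequences was not run here.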

Additional observations from a re-analysis of the deposited data

How the results depend on the processing

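The ratios of the 7 regulators in use were recomputed under the 5 alternatives that can change a gene's own ratio, and of these 105 values 84 stayed within the counting interval of the reported ratio, 21 lay outside it and 0 changed direction; the 21 came from pseudocounts of 0.1 or 1 TPM, which by construction pull low genes toward no difference. With 1 TPM added, the median log2 ratio of the regulators was −1.81 for C2 ceramide over DMSO on day 4, 2.58 for day 4 over day 3 in DMSO and 0.29 for C2 ceramide over day 3. Thresholds moved several counts. At 4-fold, 15 partners in place of 20 were lower in C2 ceramide EBs than in DMSO EBs on day 4. In DMSO EBs 19 partners in place of 24 were then higher on day 4 than on day 3, and 17 were with 1 TPM added. At 1.5-fold, 1 regulator (Tcf15) and 1 partner were higher in C2 ceramide EBs than in DMSO EBs on day 4, and 2 regulators and 3 partners were lower than on day 3. At 4-fold, 0 regulators were lower on day 4 than on day 3 in DMSO, and against day 3 C2 ceramide EBs had 3 regulators and 4 partners higher and 0 partners lower. Of these 3 regulators, Msgn1 and Foxc2 passed 4-fold only through the value set for 0 TPM. By the floor of 3 counts, Msgn1 was at least 3.49-fold and Foxc2 at least 1.91-fold higher, and their counting intervals reach down to 2.39-fold and 1.12-fold. Mesp1 rests on 1 count on day 3. The weakest counts were those of C2 ceramide over day 3, where 3 regulators were higher with 0.1 TPM added, 1 was higher and 0 were lower with 1 TPM added, 2 were higher when the interval had to lie wholly beyond 2-fold, and 5 partners were higher with 1 TPM added. Counts of regulators and partners lower in C2 ceramide EBs than in DMSO EBs on day 4 stayed within 1.5 times the reported ones under every alternative run. No paired analysis was possible because each condition had 1 library, and for the same reason no replicate could be left out. Low counts limit Msgn1, Meox1 and Ripply2.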
